A study of Mus musculus with 12 samples.

Results

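Junction and adhesion genes of the thyroid follicle epithelium were compared between 5 affected and 7 unaffected mice. The 10 genes are the cadherins *Cdh1* and *Cdh16*, the adhesion molecule gene *Epcam*, the claudins *Cldn1*, *Cldn3*, *Cldn4*, *Cldn7* and *Cldn8*, the occludin gene *Ocln* and *Tjp1*, which encodes the scaffold protein ZO-1. They were taken by gene name from the deposited tables, which hold 55536 genes. *Cdh16* was lower by 3.66-fold and *Cldn8* by 1.501-fold in affected thyroids, and in both genes every affected mouse lay below every unaffected mouse. The other 8 genes did not pass the test between the groups. The affected mice differed widely among themselves in most of these genes, and affected replicates 1 and 6 had the lowest values of the affected mice in 9 of the 10.

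The thyroids were dissected from mice of the C57BL/6N strain, and each of the 12 mice gave 1 RNA sequencing library. The 5 affected mice (replicates 1, 3, 4, 5 and 6) were B6NTac mice from Taconic with the thyroid dysplasia phenotype, which the study ties to a LINE-1 retrotransposon in an intron of the thyroglobulin gene *Tg*. The unaffected mice had a wild type phenotype, and 6 of them (replicates 21 to 26) were B6NCrl mice from Charles River. The remaining unaffected mouse (replicate 14) came from Taconic, and the methods call it a KO animal without naming the gene. The labels give neither the LINE-1 genotype nor the sex, age or any batch of these 12 mice. Apart from unaffected replicate 14, colony divided the mice just as phenotype did. That single mouse, itself a KO animal, is too little to tell the effects of colony and phenotype apart.

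Total estimated counts were between 20170500 and 23319948 in affected mice and between 11434901 (unaffected replicate 14) and 22401136 in unaffected mice. Counts scaled per library (CPM) are on edgeR's TMM scale and were used to compare mice. FPKM values, which are also divided by transcript length, were used to compare genes. *Tg*, the defining gene of follicular cells, held between 10.7% and 29.6% of all counts in each mouse. Markers of tissue other than follicles were high in single libraries, and they are given below beside the genes that moved with them. In these whole thyroids, fewer cells of a type and less RNA per cell cannot be told apart.

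Thyroid follicles are closed epithelial sheets around a store of colloid. Adherens junctions, built on cadherins, hold neighbouring cells together. Tight junctions lie closer to the lumen, where claudins and occludin seal the space between cells and set which ions may pass, and ZO-1 ties them to the actin cytoskeleton. EpCAM is an adhesion molecule of simple epithelia that binds claudins, among them the protein of *Cldn7*. *Cdh16* encodes the kidney-specific cadherin, which is also made by thyroid follicular cells.

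In GRCm38, *Cldn3* (chr5:134986214-134987472, plus strand) and *Cldn4* (chr5:134945119-134946934, minus strand) are neighbours 39279 bp apart that are transcribed away from each other. *Cdh16* (chr8:104601911-104624396, minus strand) and *Cdh1* (chr8:106603351-106670246, plus strand) also share a chromosome, with 1978954 bp between them. *Epcam* lies at chr17:87635979-87651129, *Cldn7* at chr11:69964779-69967885, *Cldn1* at chr16:26356642-26371841, *Cldn8* at chr16:88560828-88563183, *Ocln* at chr13:100496507-100552718 and *Tjp1* at chr7:65296165-65527781. The promoters of *Epcam*, *Cldn4* and *Cldn3* are shown because *Epcam* had the highest level per length of the 10 genes and *Cldn3* and *Cldn4* are genomic neighbours, so that their upstream sequences can be read side by side. Each sequence is the 250 bases before the start of the gene in RefSeq's table for GRCm38.p6, read 5′ to 3′ on the strand of the gene. Capitals mark the E-box CACCTG or its reverse complement CAGGTG, a sequence that repressors of epithelial genes such as the SNAI and ZEB proteins are known to bind.

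*Epcam*, chr17:87635729-87635978, plus strand: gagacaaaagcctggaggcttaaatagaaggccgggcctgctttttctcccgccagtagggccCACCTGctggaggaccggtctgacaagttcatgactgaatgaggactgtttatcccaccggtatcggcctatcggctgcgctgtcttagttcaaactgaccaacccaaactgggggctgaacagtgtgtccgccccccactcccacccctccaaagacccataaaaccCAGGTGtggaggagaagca
*Cldn4*, chr5:134946935-134947184, minus strand: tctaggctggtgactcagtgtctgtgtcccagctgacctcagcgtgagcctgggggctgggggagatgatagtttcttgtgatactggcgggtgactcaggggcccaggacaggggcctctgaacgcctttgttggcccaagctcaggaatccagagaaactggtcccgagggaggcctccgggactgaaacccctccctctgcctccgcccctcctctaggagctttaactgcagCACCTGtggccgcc
*Cldn3*, chr5:134985964-134986213, plus strand: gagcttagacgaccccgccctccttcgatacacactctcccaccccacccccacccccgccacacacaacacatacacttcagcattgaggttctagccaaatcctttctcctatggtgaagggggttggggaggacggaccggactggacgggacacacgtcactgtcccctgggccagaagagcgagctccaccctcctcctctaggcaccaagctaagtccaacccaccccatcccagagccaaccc

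The *Epcam* sequence held 1 copy in each orientation, that of *Cldn4* held 1 copy, and that of *Cldn3* held none. The table has 9 promoters for 7 of the 10 genes, and 4 of these promoters, from 4 genes, held the E-box in the 250 bases (*Epcam*, *Cldn4*, and 1 of the promoters each of *Cldn7* and *Ocln*). Among all 32851 promoters of the table, 17.2% held it in the same window. *Cdh1*, *Cdh16* and *Cldn8* are named without a promoter. A match describes the letters in the window and is not a measurement of binding.

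By FPKM, the 10 genes spanned a wide range of levels in unaffected thyroids. *Epcam* had the highest level of the 10, with 101.1 FPKM ± 9.09 (SD, n = 7). *Cdh16* with 61.4 FPKM ± 12.3 and *Cdh1* with 59.0 FPKM ± 6.28 came next, and these neighbours overlapped, with *Cdh16* the higher of the pair in 3 of 7 mice. *Cldn3* followed with 48.6 FPKM ± 6.55, and although its range overlapped that of *Cdh1*, it was the lower of the pair in 7 of 7 mice. *Cldn4* (25.6 FPKM ± 4.35) lay below *Cldn3* without overlap, but its range overlapped that of *Tjp1* (25.3 ± 1.29), which in turn overlapped *Cldn7* (21.3 ± 4.42). Below *Cldn7*, and without overlap between neighbours, were *Cldn8* with 13.4 FPKM ± 1.37, *Ocln* with 8.58 FPKM ± 0.961 and *Cldn1* with 1.35 FPKM ± 0.575. *Cldn3* was therefore the claudin with the highest level per length, and *Cldn1* the one with the lowest of the 5.

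**Figure D1:**
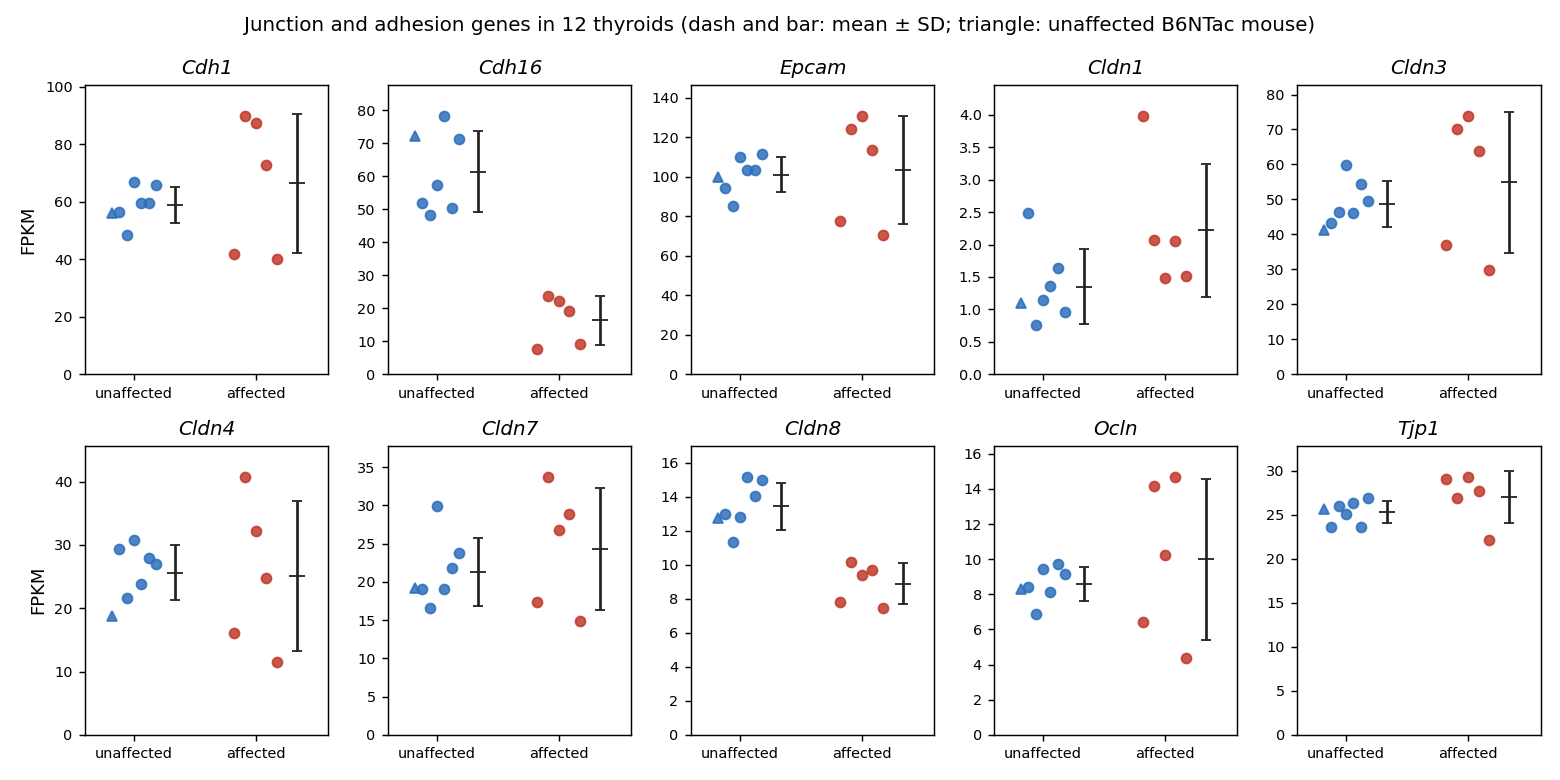
FPKM (vertical axes, from 0) of the 10 genes in each unaffected (blue) and affected (red) thyroid, with the mean and SD of each group and a triangle for unaffected replicate 14. In *Cdh16* and *Cldn8* the affected mice lie below all unaffected mice, while in most other genes 2 affected mice lie low and 3 lie within or above the unaffected range.

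The 10 genes all passed edgeR's filter on low counts, which left 19661 genes for the test. Over these genes, 2699 (13.7%) passed an adjusted p of 0.05 between affected and unaffected mice, and 6.1% were lower and 7.63% higher in affected mice. With library totals without *Tg* the split was 604 higher and 1709 lower and the median of all genes moved to -0.13, with upper-quartile factors it was 1149 and 1510, and with the lineage covariate described below it was 1585 and 598, against 1500 and 1199 here. Among the 10 genes, 2 were lower, 0 were higher and 8 did not pass. At an unadjusted p under 0.05 in edgeR 1 gene was higher, and DESeq2 and limma on FPKM called 0 higher and the same number, 2, lower. Their median log2 fold change was 0.14, and that of all genes tested was 0.01. Groups without overlap were seen for 2 of the 10 genes and for 7.14% of all genes tested. The affected mice were the lower group in both, as in 3.36% of all genes tested.

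*Cdh16*, the kidney-specific cadherin, had 19.4, 63.9, 62.7, 55.8 and 28.7 CPM in affected replicates 1, 3, 4, 5 and 6. In unaffected mice it had between 135 and 226 CPM, with a median of 159, and unaffected replicate 14 had 188. The highest affected mouse thus had less than the lowest unaffected mouse, and replicates 1 and 6 were the lowest of all. The log2 fold change was -1.87 (standard error, SE, 0.29, adjusted p = 0.00176, edgeR quasi-likelihood with Benjamini-Hochberg adjustment). With each mouse left out in turn it stayed between -2.02 and -1.68, and without unaffected replicate 14, which leaves the B6NCrl mice as controls, it was -1.85 (adjusted p = 0.00441 from the same test). Over all 25 alternative settings and left-out mice the adjusted p from the test of each setting was at most 0.0111.

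*Cdh1*, which encodes E-cadherin, the main cadherin of epithelial adherens junctions, behaved otherwise. It had 168, 384, 405, 323 and 196 CPM in affected replicates 1, 3, 4, 5 and 6. In unaffected mice it had between 221 and 301 CPM, with a median of 270. Of the affected mice, 3 lay above all unaffected mice and 2 lay below all of them, so the spread of the affected group enclosed that of the unaffected group. The log2 fold change of 0.18 (SE 0.20) did not pass the test (adjusted p = 0.603, edgeR quasi-likelihood with Benjamini-Hochberg adjustment).

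Because the cadherins are on one scale in FPKM, their proportion could be followed within each mouse, a measure that was chosen after their values had been seen and is given without a test. *Cdh16* made up 15.6%, 20.8%, 20.2%, 20.9% and 18.4% of the FPKM of *Cdh1* and *Cdh16* together in affected replicates 1, 3, 4, 5 and 6. In unaffected mice the share was between 45.8% and 56.8%. The means were 19.2% ± 2.24 (SD, n = 5) and 50.7% ± 4.52 (SD, n = 7), a difference of -31.5 percentage points. Affected replicates 1 and 6, which had the lowest levels of both cadherins, also had the lowest shares. They were at 15.6% and 18.4%, against 20.2% to 20.9% in the other affected mice. The cadherin with the larger FPKM was *Cdh1* in all affected mice, whereas in unaffected mice it was *Cdh1* in some and *Cdh16* in others.

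**Figure D2:**
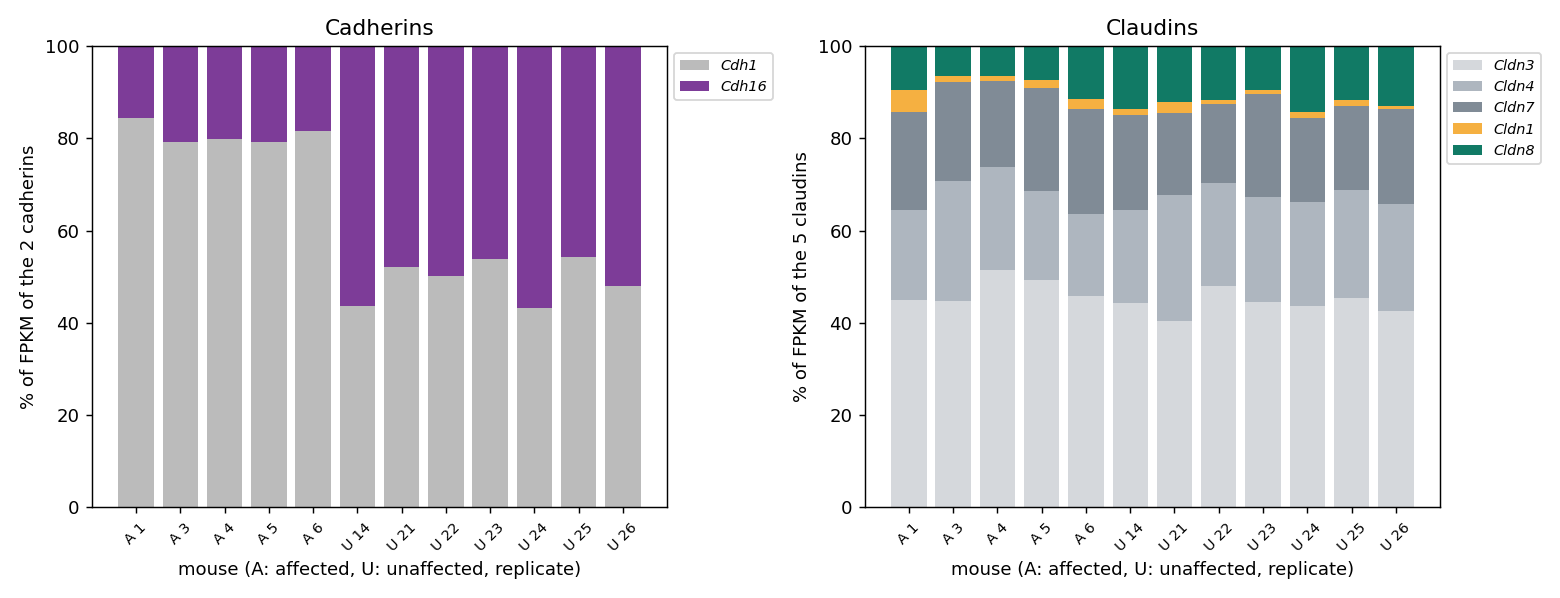
Share of FPKM within each mouse (vertical axes, percent) of the 2 cadherins (left) and of the 5 claudins (right), for affected (A) and unaffected (U) mice by replicate number. The *Cdh16* share is at most 20.9% in affected mice and at least 45.8% in unaffected mice, and the *Cldn8* share is 8.27% on average in affected mice and 12.3% in unaffected mice.

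*Epcam* had 124, 209, 240, 200 and 137 CPM in affected replicates 1, 3, 4, 5 and 6. Unaffected values were between 154 and 195 CPM, with a median of 185. Here too 3 affected mice lay above and 2 lay below all unaffected mice. In the fit, the log2 fold change was 0.04 (SE 0.15, adjusted p = 0.882, edgeR quasi-likelihood with Benjamini-Hochberg adjustment), and its sign turned under other scalings and without affected replicate 3 or 4, so no direction is given.

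*Cldn8*, a claudin known from the distal nephron as a barrier to cations, was the only claudin of the 5 that passed the test. It had 16.7, 23.1, 23.2, 23.0 and 19.5 CPM in affected replicates 1, 3, 4, 5 and 6. The unaffected mice had between 27.6 and 36.7 CPM, with a median of 30.7, and unaffected replicate 14 had 28.7. All affected mice lay below all unaffected mice, and the 5 affected mice were closer to each other than in the other claudins. Between the groups the log2 fold change was -0.59 (SE 0.10, adjusted p = 0.00315, edgeR quasi-likelihood with Benjamini-Hochberg adjustment), and it stayed between -0.62 and -0.52 when mice were left out one at a time. The call was lost only when the mean log2 CPM of the thyroid lineage factors was a covariate (log2 fold change -0.35, adjusted p = 0.0542 from the same test).

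*Cldn3* and *Cldn4*, the chromosome 5 neighbours, encode claudins that bind the toxin of *Clostridium perfringens*. *Cldn3* had 42.3, 85.03, 97.7, 81.0 and 41.9 CPM in affected replicates 1, 3, 4, 5 and 6, and between 49.4 and 76.6 CPM (median 60.4) in unaffected mice. *Cldn4* had 26.6, 71.4, 61.5, 45.5 and 23.4 CPM in the same affected mice, and between 32.6 and 56.8 CPM (median 48.1) in unaffected mice. In both genes replicates 1 and 6 lay below all unaffected mice, while 3 affected mice in *Cldn3* and 2 in *Cldn4* lay above all of them. Affected against unaffected mice, the log2 fold changes were 0.18 for *Cldn3* (SE 0.21, adjusted p = 0.624) and -0.03 for *Cldn4* (SE 0.26, adjusted p = 0.961, both from edgeR quasi-likelihood with Benjamini-Hochberg adjustment). In *Cldn3*, 40 bp (3.18%) of the exon length overlap the gene *Wbscr25* on the other strand, and whether counting used the strand is not stated.

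*Cldn7*, whose protein binds EpCAM, had 21.1, 42.9, 37.4, 38.4 and 21.9 CPM in affected replicates 1, 3, 4, 5 and 6. Unaffected values were between 22.9 and 39.4 CPM, with a median of 25.5. The highest unaffected value was that of replicate 23, whose library also held 35157 CPM of the mucin gene *Muc5b* and 3375 CPM summed over 8 salivary gland markers, against at most 36.2 CPM of these markers in the other mice. The fitted log2 fold change was 0.21 (SE 0.20, adjusted p = 0.531, edgeR quasi-likelihood with Benjamini-Hochberg adjustment). It was 0.30 without unaffected replicate 23 and 0.00099 with the airway and squamous markers as a covariate. It did not pass in either fit, and the part of other tissue in *Cldn7* was not tested.

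*Cldn1*, best known as the sealing claudin of the epidermis, had the fewest counts of the 10 genes, from 41 to 272 per mouse. It had 11.9, 6.55, 5.06, 6.74 and 5.52 CPM in affected replicates 1, 3, 4, 5 and 6. The unaffected mice had between 2.63 and 7.83 CPM, with a median of 3.89. It was the only one of the 10 genes in which affected replicate 1 was the highest affected mouse rather than among the lowest. In the fit, the log2 fold change was 0.69 (SE 0.28, adjusted p = 0.128, edgeR quasi-likelihood with Benjamini-Hochberg adjustment).

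The highest *Cldn1* values of both groups are given beside the markers of other tissue in the same libraries. Unaffected replicate 21, at 7.83 CPM, had 299 CPM summed over 8 T cell markers, 230 CPM over 6 thymic epithelium markers and 41.1 CPM of *Krt5*, a keratin of squamous and thymic epithelium. Affected replicate 1, at 11.9 CPM, had 949 CPM summed over 4 brown adipose markers and 90.6 CPM over 5 B cell markers. Without unaffected replicate 21 the log2 fold change of *Cldn1* was 0.89 and passed the threshold (adjusted p = 0.0399 from the same test), and without affected replicate 1 it was 0.43, the lowest value with a single mouse left out. Such markers were also present in other libraries. Unaffected replicate 14, with 295 CPM of the T cell and 127 CPM of the thymic epithelium markers, had 3.42 CPM of *Cldn1*. Affected replicates 5 and 6, with 370 and 299 CPM of the brown adipose markers, had 6.74 and 5.52 CPM. The part of these tissues in *Cldn1* was not tested.

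The proportion of the claudins within a mouse, also chosen after values had been seen, is given without a test. *Cldn8* made up 9.48%, 6.48%, 6.52%, 7.47% and 11.4% of the FPKM of the 5 claudins in affected replicates 1, 3, 4, 5 and 6. In unaffected mice its share was between 9.52% and 14.4%. The group means were 8.27% ± 2.13 (SD, n = 5) and 12.3% ± 1.599 (SD, n = 7), and the ranges overlapped through affected replicate 6. *Cldn3* held the largest share in every mouse, 47.2% ± 3.00 on average in affected and 44.1% ± 2.35 in unaffected mice. The shares of *Cldn4* (21.0% against 23.2%) and *Cldn7* (21.3% against 19.2%) overlapped between the groups.

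*Ocln*, which encodes the tight junction protein occludin, had 17.5, 39.5, 30.4, 45.2 and 14.6 CPM in affected replicates 1, 3, 4, 5 and 6. Unaffected values were between 20.8 and 29.7 CPM, with a median of 24.8. Again 3 affected mice lay above and 2 lay below all unaffected mice. Between the groups the log2 fold change was 0.21 (SE 0.25, adjusted p = 0.616, edgeR quasi-likelihood with Benjamini-Hochberg adjustment). Without affected replicate 5, the highest mouse, it was 0.01.

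*Tjp1*, whose product ZO-1 links tight junctions and actin, was the steadiest of the 10 genes. It had 167, 169, 201, 184 and 157 CPM in affected replicates 1, 3, 4, 5 and 6, and between 146 and 176 CPM (median 166) in unaffected mice. The coefficient of variation was 9.64% in affected and 6.82% in unaffected mice. Affected against unaffected mice, the log2 fold change was 0.10 (SE 0.07, adjusted p = 0.419, edgeR quasi-likelihood with Benjamini-Hochberg adjustment), and it was -0.03 when libraries were scaled by totals without *Tg*.

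**Figure D3:**
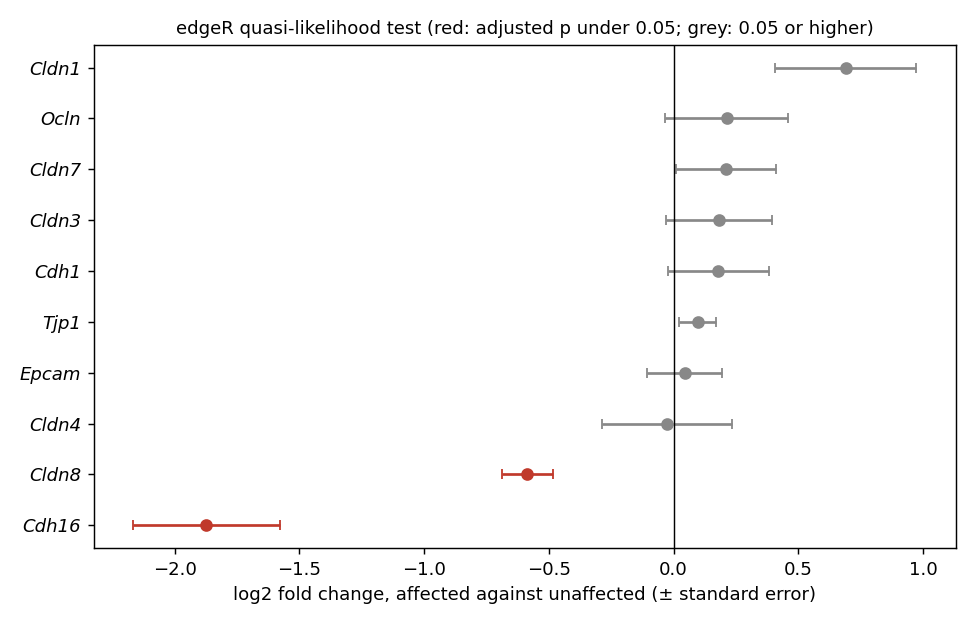
Log2 fold change of each gene in affected against unaffected mice (horizontal axis) with its SE, from edgeR's quasi-likelihood test. *Cdh16* (-1.87) and *Cldn8* (-0.59) are in red with an adjusted p under 0.05, and the other 8 genes are in grey.

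The spread between mice was larger in the affected group for 9 of the 10 genes, the exception being *Cldn1*. The median SD of log2 CPM over the 10 genes was 0.53 in affected and 0.20 in unaffected mice. Over all genes tested these medians were 0.28 and 0.21, and 67.8% of genes had the larger SD in affected mice. In the same 9 genes the lowest pair of affected mice was replicates 1 and 6. Those mice also had the lowest shares of counts from *Tg* among the affected, 11.04% and 10.7%, and the others were between 18.95% and 24.3%. Affected replicate 6 held 26786 CPM summed over 6 skeletal muscle markers, which were at most 11284 CPM in any other mouse, and affected replicate 1 held the fat and B cell markers given above. The part of this tissue in the spread was not tested.

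**Figure D4:**
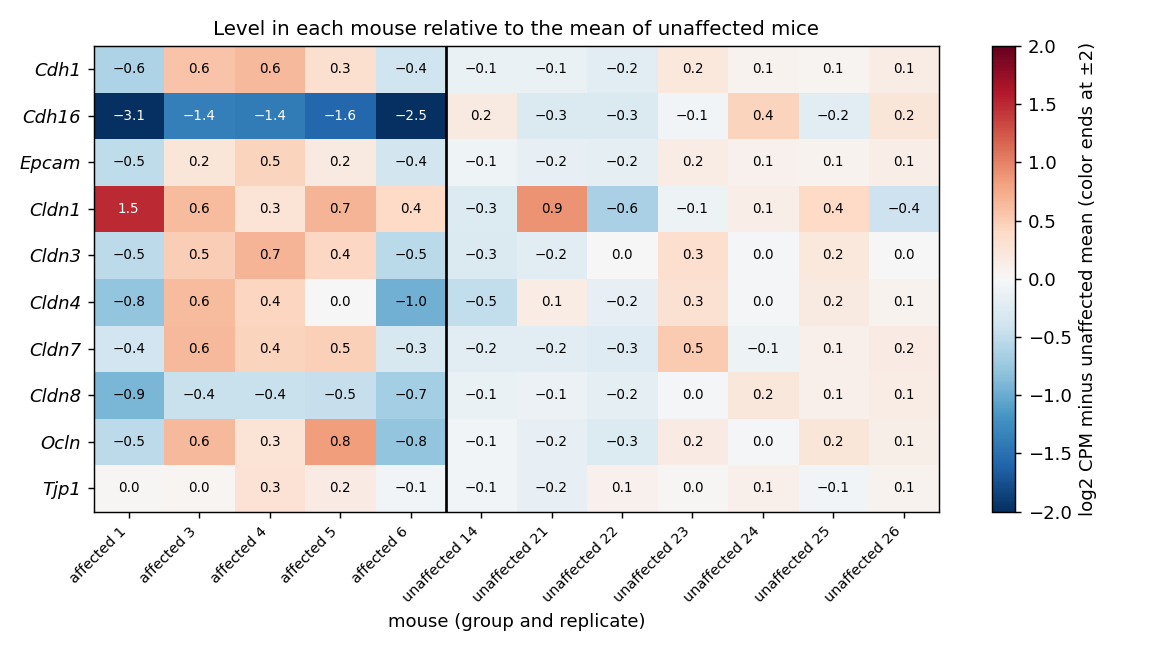
Log2 CPM of each gene in each mouse minus the mean of the unaffected mice (colour and printed value, with the colour scale ending at ±2). Affected replicates 1 and 6 are below the unaffected mean in most genes, affected replicates 3, 4 and 5 are above it in most genes other than *Cdh16* and *Cldn8*, and *Cdh16* is low in all affected mice.

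To set the 10 genes against the follicular lineage, their log2 CPM was compared with the mean log2 CPM of *Pax8*, *Nkx2-1*, *Foxe1* and *Hhex*, the transcription factors that together define thyroid follicular cells. That mean was 6.17, 6.72, 7.40, 7.002 and 6.25 in affected replicates 1, 3, 4, 5 and 6, and between 7.05 and 7.62 in unaffected mice. Relative to it, *Cdh1* was higher in affected mice by 0.72 log2 units, *Cldn3* by 0.73 and *Epcam* by 0.63, and for these 3 genes the groups did not overlap. *Cldn1* (1.32), *Cldn7* (0.80), *Tjp1* (0.72), *Ocln* (0.71) and *Cldn4* (0.48) were also higher on average relative to it, with overlap between the groups. The reference itself was lower in affected mice by 0.62 log2 units (means 6.71 and 7.33), which enters each of these differences. *Cdh16* was lower by 1.37 log2 units, again without overlap. For *Cldn8* the difference was 0.03 and the groups overlapped. The share of all genes tested without overlap on this relative scale was not computed, so these separations have no background to be read against.

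When this mean was a covariate in the fit, 5 of the 10 genes had an adjusted p under 0.05 (edgeR quasi-likelihood with Benjamini-Hochberg adjustment). Of all 19661 genes in that fit 2183 passed, and these too were mostly higher in affected mice (1585 higher and 598 lower). *Cdh1* (log2 fold change 0.70, adjusted p = 0.00866), *Epcam* (0.47, adjusted p = 0.00577), *Cldn3* (0.71, adjusted p = 0.0176) and *Tjp1* (0.26, adjusted p = 0.0322) were then higher in affected mice. *Cdh16* was lower (-1.17, adjusted p = 0.0107). *Pax8*, one of the 4 factors, was itself lower in affected mice in the fit without the covariate (log2 fold change -0.81, adjusted p = 0.0158), so these values are relative to a reference that moved between the groups. *Nkx2-1* (-0.41, adjusted p = 0.199), *Foxe1* (-0.61, adjusted p = 0.0696) and *Hhex* (-0.41, adjusted p = 0.228) did not pass, and neither did *Tg* (-0.49, adjusted p = 0.14). In 4 of 25 alternatives *Foxe1* was called lower, among them DESeq2 (adjusted p = 0.0255 from DESeq2). *Hhex* and *Tg* were called lower in 1 alternative each, the fit without affected replicate 4.

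The ratio of counts to FPKM gives the mean length of the transcripts that the authors' quantification credited to a gene. *Cldn3*, *Cldn4* and *Cldn8* have 1 annotated transcript each and so a fixed length. *Cldn1* fell below 100 counts in some mice and was not tested. None of the 6 remaining genes passed the test for this length between the groups (limma with Benjamini-Hochberg adjustment over 9007 genes, of which 40, or 0.444%, passed), and the smallest unadjusted p of the 6 was 0.099, for *Cldn7* in limma. For *Cdh16*, with 14 annotated transcripts, it averaged 2798 bp (SD 76.0) over the 5 affected and 2747 bp (SD 37.98) over the 7 unaffected mice.

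The other genes of epithelial junctions were counted in lists of known members. Among 12 other claudins that could be tested, 0 were higher and 0 were lower, with a median log2 fold change of -0.03 (edgeR quasi-likelihood with Benjamini-Hochberg adjustment). At an unadjusted p under 0.05 2 of the 12 were higher, and DESeq2 called 1 higher and limma on FPKM 0. *Cldn16*, the claudin of magnesium transport in the kidney, was listed at 0 in all 12 mice. *Cldn2* and *Cldn10*, named after their values were seen, were at 18.9 and 14.7 CPM in unaffected replicate 23, the library with salivary markers, against at most 1.73 and 8.06 CPM in every other mouse.

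Of 22 further tight junction genes, 1 was higher and 1 was lower, and their median log2 fold change was 0.06. *Cgnl1*, which encodes the plaque protein paracingulin, had a log2 fold change of 0.27 (SE 0.075, adjusted p = 0.0318), and *Magi3*, a scaffold with PDZ domains, had -0.49 (SE 0.13, adjusted p = 0.026, both from edgeR quasi-likelihood with Benjamini-Hochberg adjustment). Neither call held throughout. *Cgnl1* lost it without affected replicate 5 or unaffected replicate 14, 21, 22 or 26 (adjusted p up to 0.0684 from the same test) and in 8 of 13 other settings (adjusted p up to 0.405). *Magi3* lost it without affected replicate 3 or unaffected replicate 24 or 26 (adjusted p up to 0.0531) and in 3 other settings (adjusted p up to 0.314).

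Of 16 adherens junction genes beside the cadherins, 1 was higher and 0 were lower, with a median log2 fold change of 0.06. This was *Vcl*, which encodes the actin linker vinculin (log2 fold change 0.40, SE 0.10, adjusted p = 0.0203, edgeR quasi-likelihood with Benjamini-Hochberg adjustment). All affected mice, with 95.0 to 127 CPM, lay above all unaffected mice, with 67.9 to 93.1 CPM. The call was lost without affected replicate 3 (adjusted p = 0.0559 from the same test) and in 5 other settings. The catenin genes that bind E-cadherin did not pass, with log2 fold changes of 0.27 for *Ctnna1*, 0.07 for *Ctnnb1* and 0.05 for *Ctnnd1*.

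Among 11 other cadherins, 1 was higher and 0 were lower, with a median log2 fold change of 0.22. *Cdh4*, which encodes R-cadherin, had 60.9, 114, 147, 111 and 75.4 CPM in affected replicates 1, 3, 4, 5 and 6, and between 45.9 and 77.2 CPM in unaffected mice. Its log2 change came to 0.72 (SE 0.20, adjusted p = 0.0344, edgeR quasi-likelihood with Benjamini-Hochberg adjustment), and replicates 1 and 6 lay within the unaffected range. That call was lost without affected replicate 3, 4 or 5 or unaffected replicate 14, 21 or 22 (adjusted p up to 0.0805 from the same test) and in 7 other settings.

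Of 11 desmosome genes, edgeR called 0 higher and 0 lower, with a median log2 fold change of -0.07. At an unadjusted p under 0.05 1 of them was lower, and DESeq2 and limma on FPKM each called 1 lower. Of 19 genes of the polarity complexes, 1 was higher and 0 were lower, with a median of -0.01. This was *Stk11*, which encodes the kinase LKB1 (log2 fold change 0.26, SE 0.07, adjusted p = 0.0278, edgeR quasi-likelihood with Benjamini-Hochberg adjustment). It lost its call without any of affected replicates 1, 3, 5 and 6 or unaffected replicates 14, 21, 24 and 26 (adjusted p up to 0.079) and in 4 other settings (adjusted p up to 0.285).

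Of 9 gap junction genes, 2 were higher and 1 was lower, with a median log2 fold change of 0.25. The connexin gene *Gjb5* had 1.79, 2.56, 2.22, 2.64 and 1.38 CPM in affected replicates 1, 3, 4, 5 and 6, and at most 1.18 CPM in unaffected mice. Its log2 change came to 1.67 (SE 0.31, adjusted p = 0.00447), and that of *Panx1*, which encodes the channel protein pannexin, was -0.90 (SE 0.18, adjusted p = 0.00614, both from edgeR quasi-likelihood with Benjamini-Hochberg adjustment). *Gjb5* and *Panx1* had no overlap between the groups, and both are expressed at a low level per length, with 0.735 and 3.35 FPKM on average over the 12 mice. *Panx1* passed in all 25 alternatives and *Gjb5* in all 24 that gave it a value. The filter on at least 10 counts in every mouse removed *Gjb5*, which had 3 and 7 counts in unaffected replicates 14 and 22.

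Of 9 partners of EpCAM and proteases that act at the epithelial surface, 1 was higher and 0 were lower, with a median log2 fold change of 0.13. The serine protease gene *Tmprss2* had a log2 fold change of 0.76 (SE 0.21, adjusted p = 0.0331, edgeR quasi-likelihood with Benjamini-Hochberg adjustment). The call was lost without affected replicate 3, 4 or 5 or unaffected replicate 14, 21, 22, 25 or 26 (adjusted p up to 0.0918) and in 7 other settings (adjusted p up to 0.194).

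Integrins and hemidesmosomes attach the epithelium to its basement membrane. Of 11 integrin and hemidesmosome genes, 5 were higher and 1 was lower, with a median log2 fold change of 0.35 (edgeR quasi-likelihood with Benjamini-Hochberg adjustment). *Itga3*, an integrin subunit that binds laminin, had 58.5, 133, 122, 107 and 65.6 CPM in affected replicates 1, 3, 4, 5 and 6 and at most 70.0 CPM in unaffected mice, with a log2 fold change of 0.70 (SE 0.20, adjusted p = 0.0347). *Col17a1*, a transmembrane collagen of hemidesmosomes, had 1.85 (SE 0.48, adjusted p = 0.0256), and *Itgb8*, which encodes an integrin subunit, had -0.59 (SE 0.16, adjusted p = 0.0259). The other 3 called genes, named after their values were seen, were *Itgb1* (0.28), *Itgb4* (0.40) and *Cd151* (0.30).

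The calls of *Itga3*, *Col17a1* and *Itgb8* depended on single mice, and those of the other 3 genes were not run under the alternatives. *Itga3* lost its call without affected replicate 3, 4 or 5 or unaffected replicate 14, 21, 22, 24 or 25 (adjusted p up to 0.093, edgeR quasi-likelihood with Benjamini-Hochberg adjustment) and in 6 other settings. *Col17a1* lost it without affected replicate 3 or 4 or unaffected replicate 26 (adjusted p up to 0.0652) and in 4 other settings. *Itgb8* lost it without affected replicate 1, 3 or 5 or unaffected replicate 25 (adjusted p up to 0.0616) and in 2 other settings. *Col17a1* was highest in affected replicates 3 and 4, with 7.25 and 10.8 CPM, which also had the highest sums over 10 squamous epithelium markers, 99.0 and 130 CPM against 18.2 to 75.3 CPM elsewhere. With the airway and squamous markers as a covariate the log2 fold change of *Col17a1* was 1.15 and did not pass (adjusted p = 0.223 from the same test). With this covariate 1106 of all genes passed, against 2699 without it. The part of squamous tissue in *Col17a1* was not tested.

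Of 4 keratins of simple epithelia that could be tested, 3 were higher and 0 were lower, with a median log2 fold change of 1.15. *Krt18* had 120, 285, 295, 242 and 141 CPM in affected replicates 1, 3, 4, 5 and 6, and between 72.4 and 99.8 CPM in unaffected mice, with no overlap. *Krt8*, which encodes its partner in the filament, had 101.4, 380, 265, 289 and 111 CPM in the same affected mice, and between 74.2 and 127 CPM in unaffected mice. The fitted log2 fold changes were 1.32 for *Krt18* (SE 0.21, adjusted p = 0.00157) and 1.32 for *Krt8* (SE 0.30, adjusted p = 0.013, both from edgeR quasi-likelihood with Benjamini-Hochberg adjustment). *Krt18* passed in all 25 alternatives, and *Krt8* lost its call in 2, with FPKM and no filter and with the airway and squamous markers as a covariate (adjusted p up to 0.141).

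*Krt19* had 26.5, 97.5, 93.6, 73.6 and 38.01 CPM in affected replicates 1, 3, 4, 5 and 6, and between 27.9 and 37.0 CPM in unaffected mice. Affected replicate 1 lay below all unaffected mice and the other affected mice lay above them. In the fit, the log2 fold change was 0.97 (SE 0.28, adjusted p = 0.0367, edgeR quasi-likelihood with Benjamini-Hochberg adjustment). It lost its call when any of 10 single mice was left out, all but affected replicates 1 and 6 (adjusted p up to 0.0979), and in 6 other settings (adjusted p up to 0.303). *Krt7* did not pass (log2 fold change -0.21, adjusted p = 0.638).

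**Figure D5:**
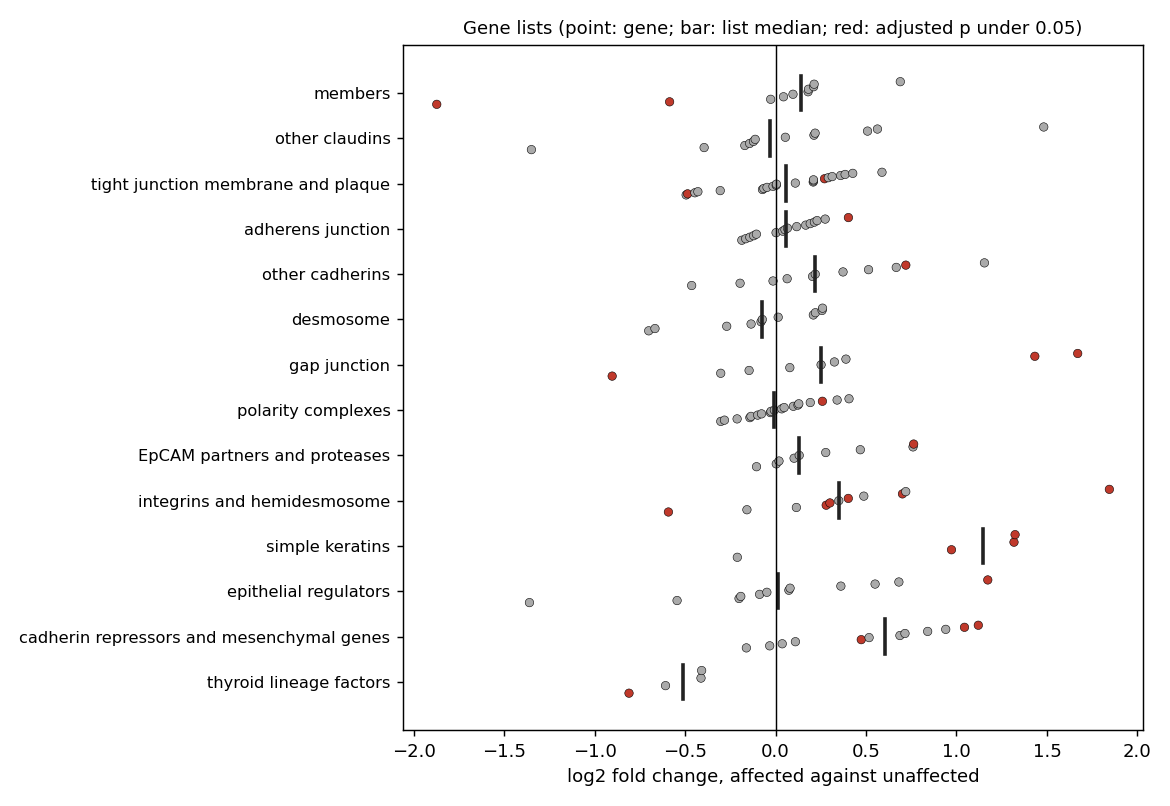
Log2 fold change in affected against unaffected mice (horizontal axis) of the tested genes of each list, with 1 point per gene, a bar at the list median and red for an adjusted p under 0.05. Of the simple keratins (median 1.15), 3 of 4 lie to the right in red and *Krt7* (-0.21) lies left of 0, the thyroid lineage factors (median -0.51) lie to the left, and the desmosome genes and other claudins hold no red point.

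Among 12 transcriptional and splicing regulators of epithelial genes, 1 was higher and 0 were lower, with a median log2 fold change of 0.01. This was *Elf5*, which encodes an ETS factor (log2 fold change 1.17, SE 0.31, adjusted p = 0.025, edgeR quasi-likelihood with Benjamini-Hochberg adjustment). Its call was lost without affected replicate 5 or unaffected replicate 26 (adjusted p up to 0.0603) and in 2 other settings.

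Of 12 repressors of cadherin genes and mesenchymal genes, 3 were higher and 0 were lower, with a median log2 fold change of 0.60. *Fn1*, which encodes fibronectin of the extracellular matrix, had 291, 345, 162, 161 and 260 CPM in affected replicates 1, 3, 4, 5 and 6, and between 84.0 and 142 CPM in unaffected mice. Its log2 change came to 1.04 (SE 0.20, adjusted p = 0.00493, edgeR quasi-likelihood with Benjamini-Hochberg adjustment) with no overlap between the groups. *S100a4*, a calcium-binding protein gene of fibroblasts and macrophages, had a log2 fold change of 1.121 (SE 0.34, adjusted p = 0.0445). *Zeb2*, a repressor of *Cdh1*, had 156, 76.5, 101.4, 99.7 and 114 CPM in affected replicates 1, 3, 4, 5 and 6, against 69.8 to 88.7 CPM in unaffected mice (log2 fold change 0.47, SE 0.14, adjusted p = 0.0384).

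*Zeb2* and *S100a4* each lost the call when any of 9 single mice was left out (adjusted p up to 0.0709 for *Zeb2* and 0.118 for *S100a4*, edgeR quasi-likelihood with Benjamini-Hochberg adjustment) and in 8 and 10 other settings. For *Zeb2* the 3 mice that could be left out with the call kept were affected replicates 3 and 4 and unaffected replicate 21. For *S100a4* they were affected replicates 4 and 5 and unaffected replicate 21. *Fn1* lost it only with the lineage covariate (adjusted p = 0.107). The repressors *Snai1* (log2 fold change 0.52), *Snai2* (0.04), *Zeb1* (0.11), *Twist1* (0.69) and *Twist2* (0.72) did not pass. The summed level of 6 fibroblast markers was between 757 and 1186 CPM in affected and between 570 and 819 CPM in unaffected mice, and that of 6 macrophage markers was between 92.7 and 154 CPM against 48.1 and 113 CPM. Of these markers, 2 fibroblast and 3 macrophage genes were higher in affected mice and 0 were lower. Their part in the values of *Fn1*, *S100a4* and *Zeb2* was not tested.

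Markers of other tissue were set beside *Cdh16* and *Cldn8*, the 2 genes that passed the test. The sums over airway, salivary, T cell, B cell, skeletal muscle, adipose, cartilage, parathyroid and C cell markers overlapped between affected and unaffected mice, although for B cells 4 affected mice, with at most 3.10 CPM, lay below all unaffected mice and affected replicate 1 lay above. Single markers did pass the test, with 2 of 7 airway, 2 of 5 squamous and 1 of 4 brown adipose genes higher and 1 of 6 endothelium genes lower in affected mice, and the largest airway and salivary sums came from 1 library. The sum over 8 follicular cell markers was between 101295 and 256831 CPM in affected mice and between 211239 and 305053 CPM in unaffected mice, and 1 of the 8 was lower in affected mice. Its part in *Cdh16* and *Cldn8* was not tested. Parathyroid markers were low in affected replicate 4, where *Pth* was at 0.723 CPM against at least 1656 CPM in every other mouse, and *Cdh16* and *Cldn8* in that mouse were among the higher values of the affected group. Airway markers were highest in unaffected replicate 23 (35168 CPM, nearly all of it *Muc5b*) and in affected replicate 3 (1965 CPM). *Cdh16* and *Cldn8* kept their calls without either mouse and with airway and squamous markers as a covariate. The part of parathyroid, airway and other tissue in *Cdh16* and *Cldn8* was not tested.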

How the data were processed

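Total RNA of 12 mouse thyroids was sequenced, 1 library per mouse. The authors depleted ribosomal RNA (RiboErase), built libraries with the KAPA HyperPrep chemistry, sequenced them on an Illumina NextSeq and quantified them in OmicSoft Array Studio against the mouse GRCm38 genome with Ensembl gene models. No source used here says if reads were counted by strand. The authors deposited a table of estimated counts, not normalized, and a table of FPKM values for 55536 genes. No comparison columns of the authors were used.

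Estimated counts were rounded and tested with edgeR 4.0.16 (R 4.3.3), with filterByExpr at a minimum count of 10 and TMM factors. A robust quasi-likelihood fit compared affected with unaffected mice. Benjamini-Hochberg adjustment covered all genes tested, with a threshold of 0.05. Log2 CPM values were computed with a prior count of 2. Standard errors were taken as the log2 estimate over the root of F. Implied transcript length was tested with limma 3.58.1 on log2 values, where a gene had more than 1 annotated transcript and no mouse fell below 100 counts. Outside the 10 genes, at most 3 called genes of each list with the largest change and a mean of at least 0.5 FPKM were named, with the lineage factors and *Tg* as reference. The 10 genes and all lists were chosen with earlier results of these data known. Alternatives were DESeq2 1.42.0, other scalings and filters, limma on log2(FPKM + pseudocount), surrogate variables (sva 3.50.0), *Xist*, lineage and airway covariates, and each mouse left out. The scripts were tested on simulated data. No 2 libraries were identical. Some called genes of the lists are not reported here.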

Additional observations from a re-analysis of the deposited data

Results flagged for a closer look

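Among 82 groups of values checked for a single mouse far from the others (Dixon's test at the 95% level), 5 stood apart, and chance gives about 1 in 20. *Cldn1* in affected replicate 1 was 11.9 CPM, with the nearest affected mouse at 6.74. The *Cldn1* share of the 5 claudins in unaffected replicate 21 was 2.32%, with the nearest at 1.36%. *S100a4* in that mouse was 4.89 CPM, with the nearest unaffected mouse at 2.77. In unaffected replicate 23, *Cgnl1* was 144 CPM, with the nearest unaffected mouse at 130 CPM, and *Krt8* was 127 CPM, with the nearest at 91.6.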

How the results depend on the processing

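*Cdh16* kept its direction and its call in all 25 alternatives (log2 fold change -2.15 to -1.17), and *Cldn8* in all but the lineage covariate. The number of the 10 genes called was 5 with that covariate and between 2 and 3 with single mice left out. Of all 19661 genes tested, 2183 were called with that covariate. The number of all genes called was 1339 by limma on log2(FPKM + 1) without a filter, 1106 with the airway and squamous covariate, and between 1774 (without affected replicate 5) and 3390 with single mice left out. From estimated counts in place of FPKM, an alternative chosen after seeing the data, the difference was -25.98 percentage points for the *Cdh16* share and -5.85 for the *Cldn8* share, and with single mice left out it was -32.3 to -30.5 and -4.82 to -3.58. The sign turned for genes near 0. *Epcam* was -0.0758 with totals without *Tg*, -0.000887 with upper-quartile factors, -0.00725 by limma on log2(FPKM + 1) with or without a filter, -0.00769 with a pseudocount of 0.1, -0.0722 with the airway covariate, -0.00926 and -0.0592 without affected replicates 3 and 4, and between -0.0592 and 0.150 over all single mice left out. *Tjp1* was -0.0336 with totals without *Tg* and *Cdh1* -0.0468 with the airway covariate. *Cldn4* was 0.46 with the lineage covariate, 0.110 and 0.147 without affected replicates 1 and 6, 0.0182 and 0.0153 without unaffected replicates 23 and 25, and between -0.245 and 0.147 over all single mice left out. With the lineage covariate *Nkx2-1* was 0.152, *Hhex* 0.175 and *Tg* 0.0442. The causes were not tested. No paired analysis was possible because affected and unaffected mice share no replicate numbers. Depth limited *Cldn1* most, with 41 counts in its lowest mouse.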
